A study of Mus musculus with 36 samples.

Results

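Binding of the nucleosome remodeling and deacetylase complex, NuRD, was examined at 10 genes that encode its own subunits: Chd4, Mbd2, Mbd3, Mta1, Mta2, Gatad2a, Hdac1, Hdac2, Rbbp4 and Rbbp7. They are 10 of the 22359 protein-coding genes of the GENCODE vM1 annotation on chromosomes 1 to 19, X and Y, and they were chosen by name as subunits of the complex. For each gene, the peaks with a midpoint within 20 kb of the gene body were collected from 9 lists of ChIP-seq peaks, which map the places where a protein was cross-linked to DNA. MBD3 and CHD4, both NuRD subunits, were precipitated with antibodies against the endogenous proteins from wild-type R1 embryonic stem cells (ESCs) grown in serum and LIF with 2i inhibitors, with 2 replicates each. The same antibodies were used on neural progenitor cells (NPCs) that had been derived from R1 ESCs in vitro, with 1 list each and so without a replicate. SIN3A, the scaffold of another histone deacetylase complex, was precipitated from wild-type R1 ESCs once without and once with added spike-in chromatin, and ZFP296, a zinc finger protein, was precipitated with a GFP antibody from an ESC line labelled as R1 with a tagged ZFP296 transgene on a bacterial artificial chromosome (1 list). The other 27 of the 36 samples were not analysed here.

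NuRD joins an ATP-dependent nucleosome remodeler to histone deacetylases. CHD4 slides nucleosomes, HDAC1 and HDAC2 remove acetyl groups from histone tails, MTA proteins are the scaffold that holds the deacetylases, RBBP4 and RBBP7 bind histones, and GATAD2 proteins bridge the remodeler to the part of the complex that holds MBD2 or MBD3. MBD2 recognizes methylated CpG, whereas mammalian MBD3 does so poorly, and MBD3-containing NuRD is required for ESCs to leave the pluripotent state. HDAC1, HDAC2, RBBP4 and RBBP7 are shared with the SIN3A complex.

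The lists held from 2304 peaks (NPC MBD3) to 29974 peaks (ESC CHD4 replicate 2), and a longer list reaches more genes of any kind, so the counts of NuRD subunit genes per list stand beside the share of all protein-coding genes called in the same list. Each peak carries a −log10 value of the peak caller that is not on a common scale between lists. The rank of that value, given as the percentage of peaks of the same list with a lower value, was therefore used. In ESC CHD4 replicate 2, labelled as wild type, each of the 29974 peaks is named after a Zfp219 transgene, and the SIN3A lists differ in spike-in and in calling threshold, which cannot be told apart. CHD4 peaks were looked up at the start sites of ESC marker genes, of which 7 could be matched. ESC replicate 1 reached 6 of them, replicate 2 reached 7 and the NPC list reached 1. Of 8 NPC marker genes, the same lists reached 0, 2 and 1, so the NPC markers did not set the NPC list apart. Over all genes these lists reached 10.2%, 26.4% and 15.4% of start sites. A gene without a called peak is a gene below the caller's threshold, which is not the same as a gene without binding.

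The reference sequences below show the promoters that the peaks fall on or near. They cover the 250 bases before the outermost annotated start site (mm9, strand of the gene, 5′ to 3′) for Gatad2a, whose start sites had peaks in the most lists, for Chd4, Mta2 and Hdac2, which had peaks in 3 lists each, and for Rbbp7, which had none. Capitals mark the strings searched for, here the GC box GGGCGG, the CCAAT box, the CRE string TGACGT in Gatad2a and the octamer string ATGCAAA in Mta2, on either strand.
Gatad2a promoter (chr8:72520279-72520528, minus strand): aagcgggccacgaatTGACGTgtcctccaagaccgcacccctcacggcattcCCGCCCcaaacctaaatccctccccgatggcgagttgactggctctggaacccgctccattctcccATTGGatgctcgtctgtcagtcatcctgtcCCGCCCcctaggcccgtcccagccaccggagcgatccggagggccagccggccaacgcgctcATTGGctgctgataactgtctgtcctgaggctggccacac
Chd4 promoter (chr6:125045749-125045998, plus strand): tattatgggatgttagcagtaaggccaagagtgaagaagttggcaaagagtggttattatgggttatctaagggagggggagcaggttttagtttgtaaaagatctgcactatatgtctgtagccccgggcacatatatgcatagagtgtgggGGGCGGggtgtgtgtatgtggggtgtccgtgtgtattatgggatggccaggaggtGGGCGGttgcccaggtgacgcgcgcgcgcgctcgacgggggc
Mta2 promoter (chr19:9016115-9016364, plus strand): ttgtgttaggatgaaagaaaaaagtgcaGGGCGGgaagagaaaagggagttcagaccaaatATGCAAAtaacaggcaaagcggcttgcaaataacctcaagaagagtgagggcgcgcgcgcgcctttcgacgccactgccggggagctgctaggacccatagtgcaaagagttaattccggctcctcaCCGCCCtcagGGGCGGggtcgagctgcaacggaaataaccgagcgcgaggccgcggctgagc
Hdac2 promoter (chr10:36694100-36694349, plus strand): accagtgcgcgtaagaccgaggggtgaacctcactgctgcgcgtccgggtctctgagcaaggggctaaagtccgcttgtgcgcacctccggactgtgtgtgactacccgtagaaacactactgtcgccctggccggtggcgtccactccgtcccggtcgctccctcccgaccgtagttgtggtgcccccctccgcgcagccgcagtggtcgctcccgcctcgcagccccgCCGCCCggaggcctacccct
Rbbp7 promoter (chrX:159198084-159198333, plus strand): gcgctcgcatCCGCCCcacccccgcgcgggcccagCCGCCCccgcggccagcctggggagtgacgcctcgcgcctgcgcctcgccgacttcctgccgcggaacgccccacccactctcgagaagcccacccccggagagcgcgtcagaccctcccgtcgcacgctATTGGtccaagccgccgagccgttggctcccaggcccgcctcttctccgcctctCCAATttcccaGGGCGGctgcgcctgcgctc

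The sequence of Gatad2a was overlapped by SIN3A peaks of both lists, that of Chd4 by a CHD4 peak of ESC replicate 1, that of Mta2 by a CHD4 peak of ESC replicate 2 and by both SIN3A lists, and that of Hdac2 by both SIN3A lists. On Gatad2a, the SIN3A peak without spike-in only touched the edge of the stretch, ending at 72520280, whereas the peak with spike-in ran to 72520481. No list had a peak on the sequence of Rbbp7. A GC box was found in the promoters of all 10 genes, taken from 250 bases before to 50 bases after the start, and in 44.0% of 22354 promoters of protein-coding genes. The CCAAT box was found in 6 of the 10 (Chd4, Mbd3, Gatad2a, Hdac1, Rbbp4 and Rbbp7), beside 37.9% of all promoters. The promoters of NuRD subunit genes were rich in CpG. Their ratio of observed to expected CpG ranged from 0.619 in Mbd2 to 1.12 in Rbbp4 with a median of 0.919, beside a median of 0.542 over all promoters, and 10 of 10 reached a ratio of 0.6, which 45.8% of all promoters did. Matches are a description of the letters and mark no binding site.

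SIN3A, rather than MBD3, had the most peaks at the start sites of NuRD subunit genes. The SIN3A lists also reached the largest shares of all genes there, so this order is not particular to these genes. A peak was assigned to a start site when its midpoint lay from 1 kb upstream to 5 kb downstream of the start of any protein-coding transcript, the window that the study used for peaks at start sites. In the SIN3A list without spike-in, 8 of the 10 genes had such a peak, beside 42.2% of all genes, and the 2 without were Mbd2 and Rbbp7. In the SIN3A list with spike-in, 6 of 10 had one (Chd4, Mbd2, Mta2, Gatad2a, Hdac2 and Rbbp4), beside 34.6%. In both lists 5 genes had a peak (31.2% of all genes), and in either list 9 had one (45.7%), so the lists differed for Mbd2, Mbd3, Mta1 and Hdac1. The background rises when it is restricted to the 10227 genes whose promoter reaches the CpG ratio of 0.6, as those of the 10 NuRD subunit genes do. There, 72.6% of genes had a SIN3A peak in the list without spike-in and 60.8% in the list with spike-in, so the counts of 8 and 6 lay near the share of CpG-rich promoters. Among the 2304 peaks of highest value in each list, the counts were 1 (9.53% of all genes) and 3 (9.77%). Those of MBD3 replicates 1 and 2 were then 1 (2.75%) and 0 (1.5%).

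CHD4 peaks in ESCs were fewer and varied between replicates. ESC CHD4 replicate 1 had a peak at the start sites of 2 genes, Chd4 and Gatad2a, beside 10.2% of all genes and 15.0% of those with CpG-rich promoters. ESC CHD4 replicate 2 had peaks at 4 genes, Mbd2, Mta2, Gatad2a and Hdac2, beside 26.4% of all genes and 38.3% of those with CpG-rich promoters. Gatad2a was the gene with a CHD4 peak at a start site in both replicates (8.41% of all genes), and 5 genes had one in either (28.2%). Chd4 was called in replicate 1 and not in replicate 2, although the second list is the longer. With values of at least 10 required, 0 genes were called in replicate 1 (3.23% of all genes) and 2 in replicate 2 (10.7%).

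MBD3, the subunit that marks NuRD together with CHD4, had few called peaks at these start sites. ESC MBD3 replicate 1 had a peak at the start site of 1 gene, Mta1, beside 2.8% of all genes, and replicate 2 had none, beside 4.84% (both replicates 0 genes, beside 1.32%). No NuRD subunit gene had overlapping peaks of MBD3 and CHD4 in its start site window, which 4.8% of all genes had. At that share, 0 of 10 genes lies near the background. Overlapping peaks of CHD4 and SIN3A were found at 4 genes (Mbd2, Mta2, Gatad2a and Hdac2), beside 16.7% of all genes. ZFP296 had no peak at any of the 10 genes' start sites (3.65% of all genes). Over the 9 lists together, 9 of the 10 genes had a peak of some kind at a start site, beside 55.3% of all genes. Among genes with CpG-rich promoters, the SIN3A list without spike-in by itself reached 72.6%. The shares of such genes for all 9 lists together and for overlapping CHD4 and SIN3A peaks were not computed.

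**Figure D1:**
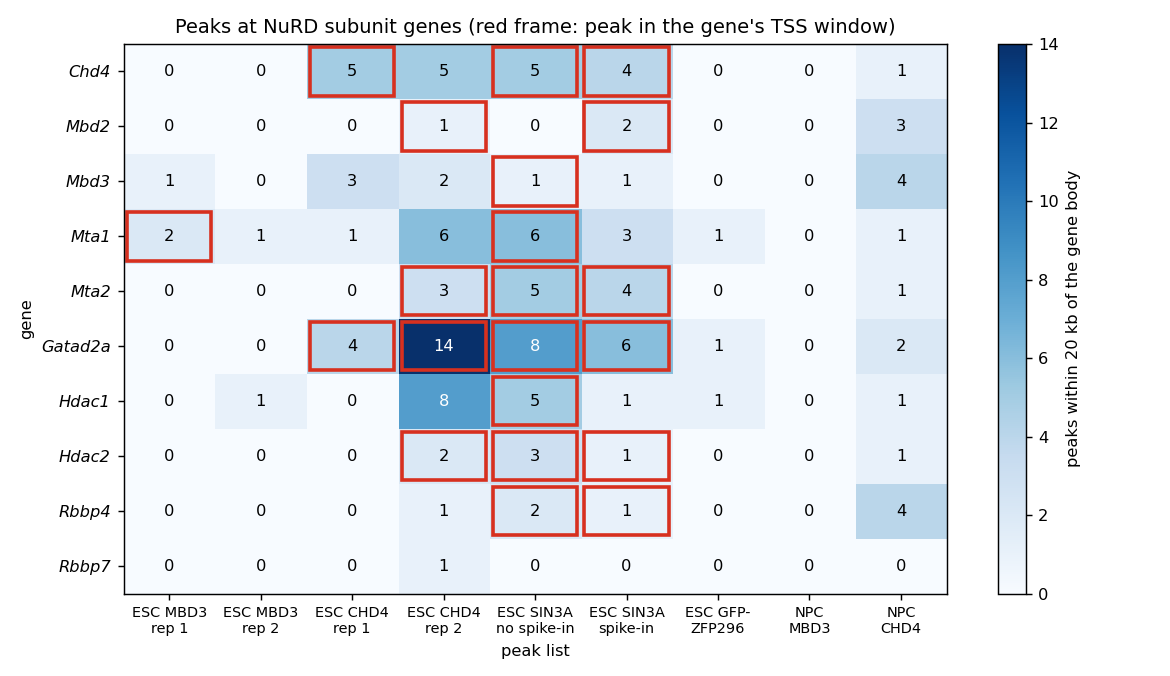
Number of peaks within 20 kb of each gene body (rows) in each of the 9 peak lists (columns), where darker blue stands for more peaks and a red frame marks a list with a peak in the start site window of that gene. The frames gather in both SIN3A columns (8 and 6 genes) and in ESC CHD4 (2 and 4 genes), with 1 frame in the MBD3 columns and none in the NPC columns.

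In NPCs, none of the 10 start site windows held a peak. The NPC CHD4 list, with 20234 peaks, reached 15.4% of all genes there and 22.7% of those with CpG-rich promoters, and the NPC MBD3 list reached 2.81%. Among the genes with SIN3A peaks in both ESC lists, 27.4% had an NPC CHD4 peak in the window, and of the 5 NuRD subunit genes in that group 0 had one. With a window of 5 kb to each side, 2 genes had an NPC CHD4 peak (18.8% of all genes). The nearest NPC CHD4 peak to a start site of its gene lay 3893 bp upstream of Mbd3. NPCs were profiled once per factor, so no replicate spread is known for these counts, and no test was made. Within 20 kb of the gene body, the NPC CHD4 list reached 9 genes, all except Rbbp7, beside 42.8% of all genes. The 10 genes are longer than most, and the part of length in this count was not tested.

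**Figure D2:**
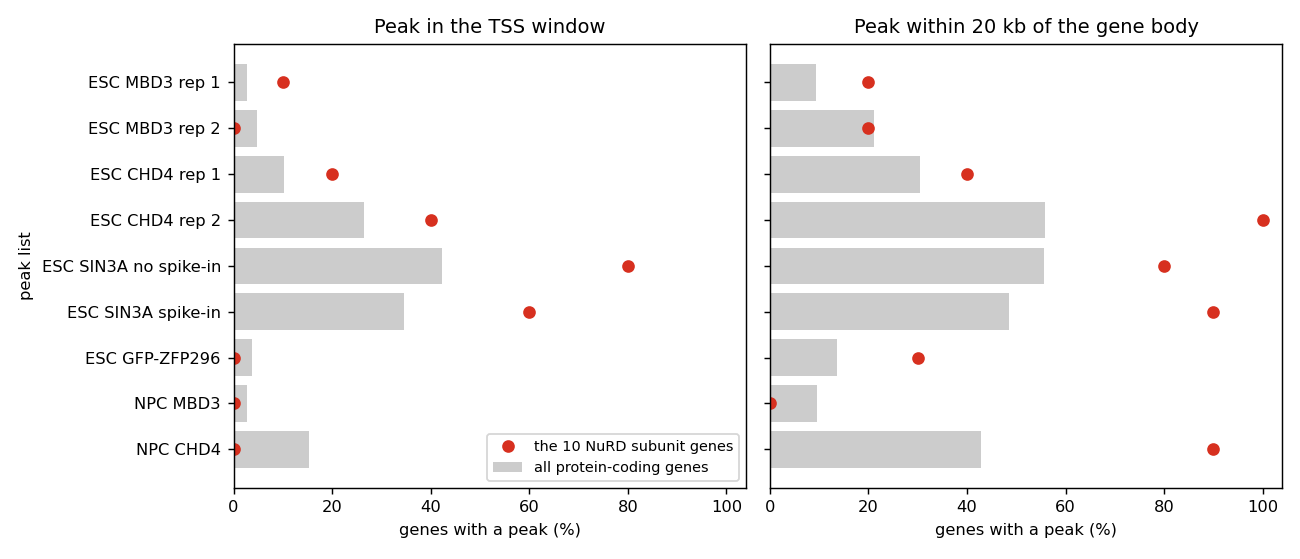
Percentage of genes with a peak in the start site window (left) and within 20 kb of the gene body (right) in each list, for all 22359 protein-coding genes (grey bars) and for the 10 NuRD subunit genes (red points, steps of 10%). At start sites the red points lie above the bars for ESC MBD3 replicate 1 (1 gene), both ESC CHD4 and both SIN3A lists and at 0 for the other 4 lists. The bars do not show the higher shares among genes with CpG-rich promoters. At start sites these were 4.09% for MBD3 replicate 1, 15.0% and 38.3% for ESC CHD4 replicates 1 and 2, and 72.6% and 60.8% for SIN3A without and with spike-in.

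Chd4, the remodeler, lies on chromosome 6 (125045999 to 125080609, plus strand) and has 4 annotated start sites, 3 of them within 588 bp. ESC CHD4 replicate 1 had a peak 253 bp upstream of the outermost start (125045581 to 125045911), with a value of 5.91 above 18.6% of the peaks of that list. No peak of another list overlapped it. The SIN3A peaks lay farther downstream, at 60 and 342 bp past an inner start in the list without spike-in (values 11.7 and 8.03) and at 112 and 82 bp from the nearest start site with spike-in (values 7.89 and 4.51). Peaks of higher rank near Chd4 lay elsewhere. CHD4 replicate 1 reached 13.6, above 86.3% of its list, at an intergenic site 6838 bp upstream. Peaks of CHD4 replicate 2 (values 7.77 and 6.28) overlapped that site. SIN3A without spike-in reached 22.9, above 89.6% of its list, at the start of the neighbouring Nop2, and the NPC CHD4 peak of 16.9 lay on an exon of Lpar5 13929 bp upstream, where CHD4 replicate 2 and both SIN3A lists also had peaks.

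The MBD genes encode alternative subunits of the complex, and their start sites held few peaks. Mbd2 (chromosome 18, 70727843 to 70785785) had a CHD4 peak of replicate 2 at the start itself, 19 bp upstream of a start site (value 7.77, above 39.0% of the list). A SIN3A peak with spike-in overlapped it (value 5.03), and a second one lay 325 bp downstream (value 16.4, above 88.7%). The SIN3A list without spike-in, the longer of the SIN3A lists, had no peak within 20 kb of Mbd2.

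Mbd3 (chromosome 10, 79855284 to 79862295, minus strand) had 1 peak in its start site window, of SIN3A without spike-in in an intron 645 bp downstream (value 10.7, above 41.0%). The MBD3 peak nearest to the gene that encodes it, of replicate 1, lay on an exon of Mex3d (value 5.45), inside the window of Mex3d. A region of CHD4 replicate 1 and NPC CHD4 peaks (values 14.4 and 9.16) lay 3881 and 3893 bp upstream, in an intron of Uqcr11 and within its window.

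The MTA scaffold genes differed from each other. Mta1 (chromosome 12, 114336489 to 114375417) carried the MBD3 peak found at a NuRD subunit start site, 346 bp upstream in replicate 1 (114336053 to 114336234, value 6.19, above 24.5% of the list), and no other list overlapped it. In the whole list of MBD3 replicate 1, 4.44% of the peaks were overlapped by none of the other 8 lists. The 300 bases centred on that peak (chr12:114335994-114336293, mm9, plus strand) are printed because they carry a short string many times, which was noticed after the sequence was read. Capitals mark GGATGC, searched on both strands.
Mta1 peak: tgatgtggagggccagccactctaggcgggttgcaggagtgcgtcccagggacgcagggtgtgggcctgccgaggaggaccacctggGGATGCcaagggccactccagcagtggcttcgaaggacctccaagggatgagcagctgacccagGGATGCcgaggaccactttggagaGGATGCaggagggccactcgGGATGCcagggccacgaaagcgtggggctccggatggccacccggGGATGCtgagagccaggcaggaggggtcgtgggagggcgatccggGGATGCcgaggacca

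The string occurs 6 times in these 300 bases, 13.0% of the 22354 promoters of the same length hold it at least once, and 0 hold it 6 times or more. Because the string was picked from this sequence, these shares do not measure how unusual it is. The promoters also lie around the start, whereas this stretch is centred farther upstream. The ratio of observed to expected CpG was 0.464 there, beside 1.02 in the Mta1 promoter. SIN3A without spike-in had a peak of value 6.42 in the window of Mta1, above 6.22% of its list. Inside the gene, an intronic site about 16991 bp from the start was shared by MBD3 replicate 2 (value 7.42), CHD4 replicate 2 (6.32) and SIN3A without spike-in (16.0, above 72.6%), and a SIN3A peak with spike-in (7.39) overlapped the latter. This was 1 of 2 places near the 10 genes where MBD3 and CHD4 peaks of ESCs overlapped. The other lay 41624 bp from the start of Hdac1, outside the gene, where MBD3 replicate 2 (12.2, above 80.1%), CHD4 replicate 2 (14.5, above 84.6%) and SIN3A without spike-in (8.83) had peaks.

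Mta2 (chromosome 19, 9016365 to 9026793) has a single annotated start site. CHD4 replicate 2 had a peak 138 bp upstream (9016155 to 9016299, value 6.28, above 20.8%). SIN3A without spike-in had a peak from 9016217 to 9016648 across the start (17.5, above 78.2%), and SIN3A with spike-in had peaks at 32 bp upstream (above 62.7%) and 301 bp downstream (above 50.5%). The CHD4 peak overlapped both SIN3A lists. A second cluster of CHD4, SIN3A and NPC CHD4 peaks, near 12104 bp upstream, lay at the start of Eml3.

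Gatad2a, the bridge, had the most peaks of the 10 genes, 35 of the 140 within 20 kb and 11 of the 37 in start site windows. It is also the longest of them, at 89.3 kb (chromosome 8, 72430968 to 72520278, minus strand), beside 7.01 kb for Mbd3. It has an outer start site and an inner one 22.0 kb downstream. At the outer start, SIN3A had the highest values of any NuRD subunit start site, 36.6 without spike-in (72519786 to 72520280, above 97.7% of the list) and 51.7 with spike-in (72519811 to 72520481, above 99.2%). A second site, at 357 to 375 bp upstream, held peaks of CHD4 replicate 2 (8.98), SIN3A without spike-in (13.2) and SIN3A with spike-in (9.27). At the inner start, wide SIN3A peaks were called in both lists (1023 bp and 971 bp, values 27.4 and 7.61), and CHD4 peaks of replicate 1 (9.16, above 61.2%) and replicate 2 (10.8, 6.29 and 3.36) overlapped them. The presence of Gatad2a among the genes called in both CHD4 replicates rests on this inner start, since with the outermost start site of each gene alone no NuRD subunit gene was called in both.

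The CHD4 peak with the highest rank near a NuRD subunit gene was in Gatad2a and away from both start sites. It lay in an intron 9172 bp from the outer start, with a value of 34.1 in replicate 2 (above 99.3% of the list) and of 9.39 in replicate 1 (above 62.6%), and neither SIN3A list overlapped it. Another intronic region, 37680 bp downstream of the inner start, was shared by CHD4 replicate 2 (11.0), SIN3A without spike-in (19.1), SIN3A with spike-in (9.41) and ZFP296 (5.65). The NPC CHD4 list had no peak inside Gatad2a.

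**Figure D3:**
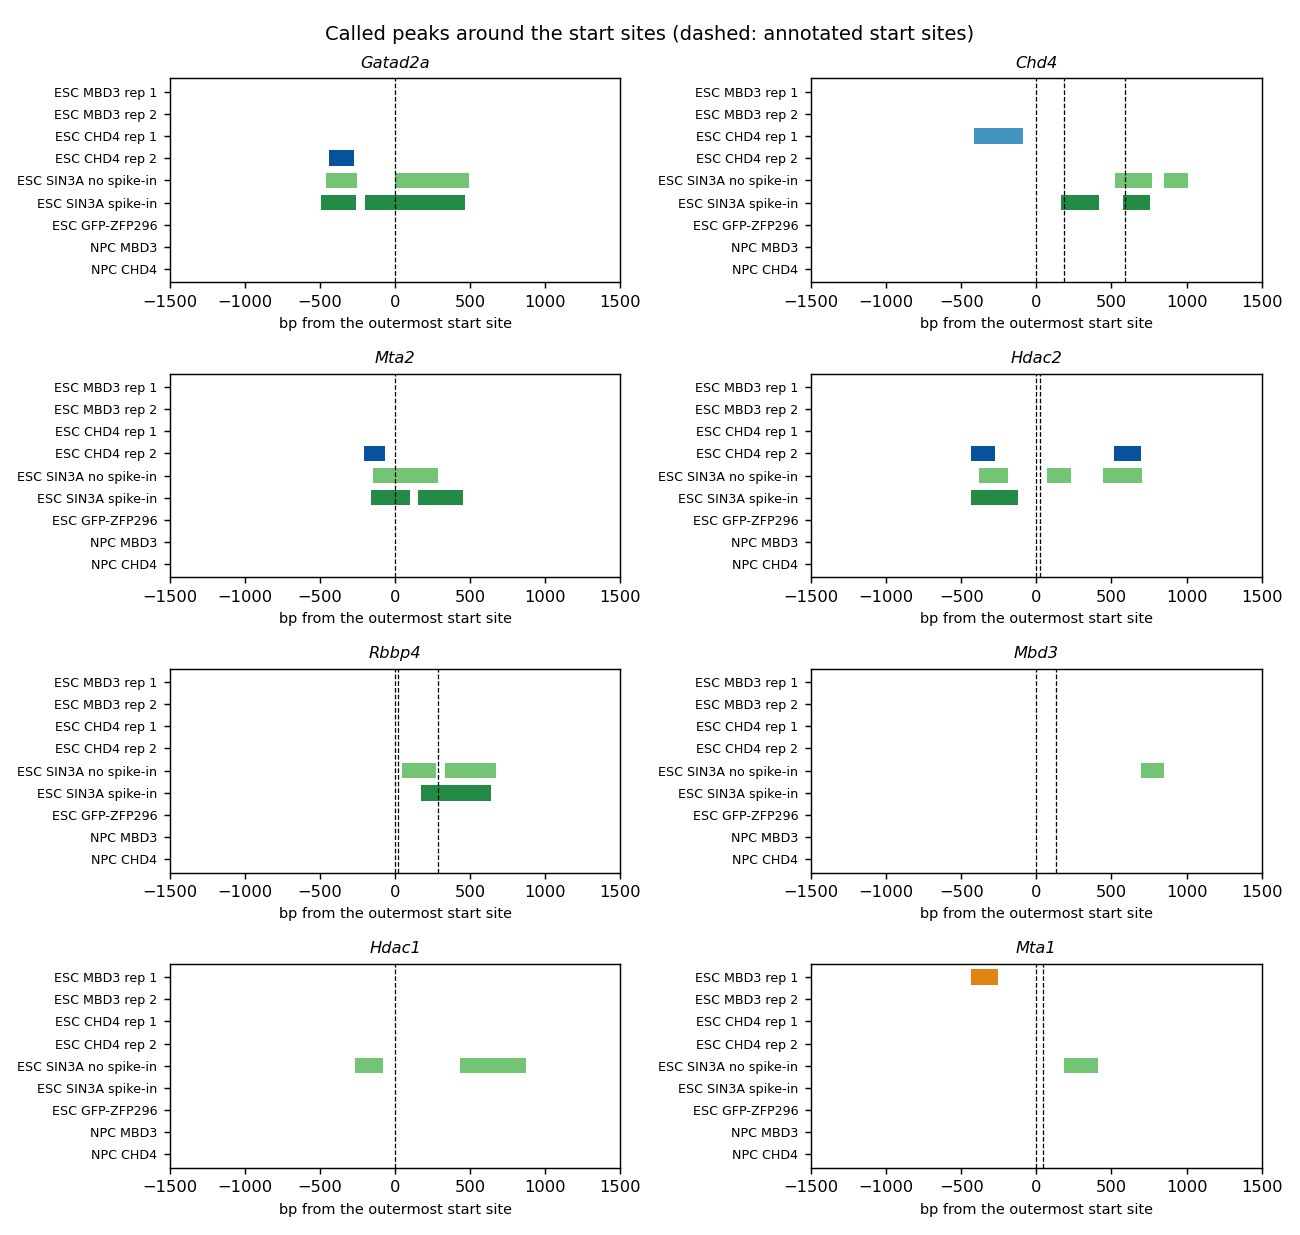
Called peaks (bars) of each list within 1500 bp of the outermost start site of 8 genes, in bp along the direction of transcription, with dashed lines at annotated start sites. The inner start site of Gatad2a, 22.0 kb downstream, lies outside the view. CHD4 peaks of replicate 2 at Gatad2a, Mta2 and Hdac2 lie upstream of the start and over SIN3A peaks, except 1 peak at Hdac2 579 bp downstream that also lies over a SIN3A peak.

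HDAC1 and HDAC2 are close paralogs, and the lists at their start sites differed. Hdac2 (chromosome 10, 36694350 to 36721695) had its peaks close to the start in 3 ESC lists. CHD4 replicate 2 had a peak 355 bp upstream (36693916 to 36694074, value 11.7, above 73.1%) and another 579 bp downstream (7.95). SIN3A without spike-in had 3 peaks, of values 6.39, 10.7 and 11.8, at 285 bp upstream and at 122 and 546 bp downstream, and SIN3A with spike-in had 1 of 14.7 at 279 bp upstream (above 85.0%). Both CHD4 peaks overlapped SIN3A peaks. Hdac1 (chromosome 4, 129193348 to 129219957, minus strand) had no CHD4 peak at its start. Its start site window held SIN3A peaks of the list without spike-in at 174 bp upstream and 652 bp downstream (6.39 and 11.8, above 5.33% and 48.8% of that list). The 8 CHD4 peaks of replicate 2 within 20 kb of Hdac1 lay away from its start, 2 of them upstream in introns of Lck and 6 past its end, 3 of those in the window of Marcksl1.

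The histone-binding subunits also differed. Rbbp4 (chromosome 4, 128984344 to 129012614, minus strand) had SIN3A peaks in both lists at its start (without spike-in 10.9 and 19.2, above 43.1% and 82.4%, and with spike-in 8.33, above 46.8%) and no CHD4 peak of ESCs there. The neighbouring Zbtb8os starts close by, so these peaks lie in the windows of both genes. An intronic NPC CHD4 peak of 18.4, above 91.9% of its list, lay 10136 bp past the nearest start site of Rbbp4 (chromosome 4, 129002082 to 129002300), and no ESC list overlapped it. It had the highest rank among the 18 NPC CHD4 peaks near the 10 genes. Rbbp7 (chromosome X, 159198334 to 159217024) had 1 peak within 20 kb in all 9 lists together, of CHD4 replicate 2, 4289 bp upstream of its start (value 5.16, above 8.94%). Its promoter was rich in CpG (ratio 0.963) and held GC boxes.

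In the 37 peaks within start site windows, the midpoints ranged from 375 bp upstream to 699 bp downstream of the nearest start site, and 32 of them lay within 500 bp, although the window runs to 5 kb. SIN3A gave 26 of the 37 and CHD4 in ESCs gave 10, of which 9 overlapped a SIN3A peak. The exception was the peak upstream of Chd4. The 9 peaks came from 4 genes and pool both replicates, and Gatad2a alone held 1 in replicate 1 and 4 in replicate 2. Over the whole lists, at any place, 25.3% and 22.0% of CHD4 peaks of replicates 1 and 2 overlapped a SIN3A peak. The share for start site peaks of all genes was not computed, so 9 of 10 is not a trait of these genes. Read against the genes with SIN3A at the start in both lists, of which 46.3% had a CHD4 peak of replicate 2, 3 of 5 NuRD subunit genes had one. In replicate 1 the numbers were 19.8% and 2 of 5.

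**Figure D4:**
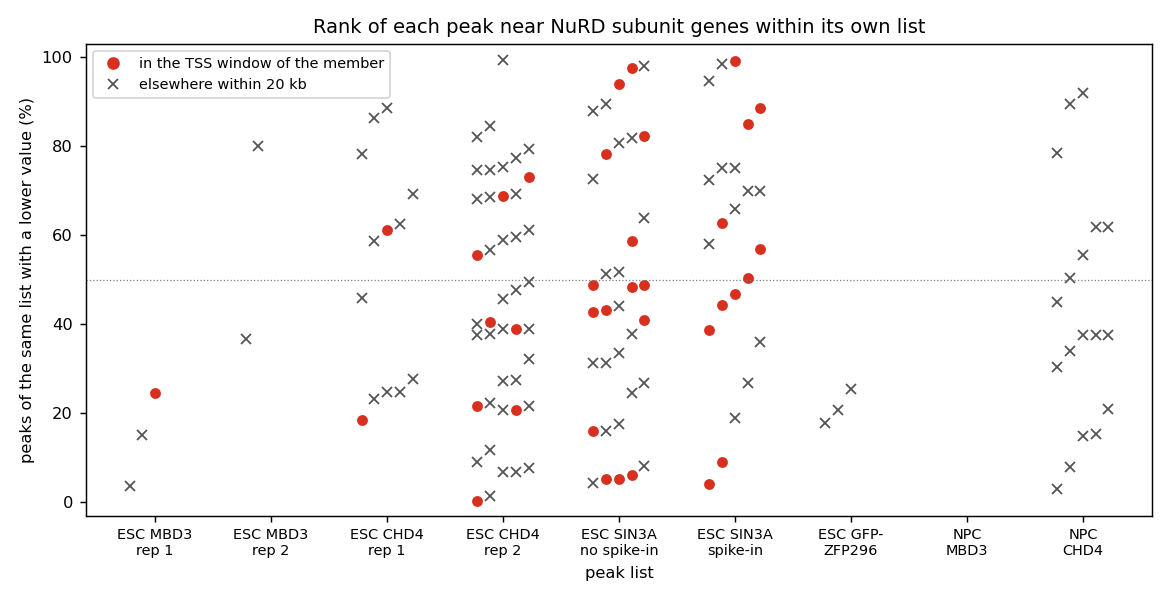
Rank of each of the 140 peaks near the 10 genes within its own list, as the percentage of peaks of that list with a lower value, with red circles for peaks in the start site window of the gene and grey crosses for other peaks. Points are spread sideways for visibility. SIN3A start site peaks ranged from near the bottom of the list to above 99.2% of it, and CHD4 start site peaks reached 73.1% at most.

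Within 20 kb of the gene bodies the counts were higher in most lists. MBD3 had peaks near 2 genes in replicate 1 (Mbd3 and Mta1), beside 9.29% of all genes, and near 2 in replicate 2 (Mta1 and Hdac1), beside 21.1%. CHD4 had peaks near 4 genes in ESC replicate 1 (Chd4, Mbd3, Mta1 and Gatad2a; 30.5%) and near 10 in replicate 2 (55.8%), and near 9 in NPCs (42.8%). SIN3A had peaks near 8 genes without spike-in (55.6%) and near 9 with spike-in (48.6%), ZFP296 near 3 (Mta1, Gatad2a and Hdac1; 13.7%), and NPC MBD3 near 0 (9.51%). These counts depended on the peaks kept. With values of at least 10 required, CHD4 reached 6 genes in ESC replicate 2 (33.5% of all genes) and 4 in NPCs (25.3%), and among the 2304 peaks of highest value in each list it reached 1 (10.9%) and 2 (9.55%). SIN3A reached 4 genes in each list among those peaks (17% of all genes in both). The genes near MBD3 replicate 1 and ZFP296 peaks fell to 0 in both when values of at least 10 were required (3.19% and 5.28% of all genes). MBD3 replicate 2 reached 6 genes at a distance of 50 kb (33.1%). The 10 genes are longer than most, with a median body of 27.8 kb beside 15.4 kb, and have a median of 3 start sites beside 1, which move with a count of this kind, and their part in it was not tested.

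**Figure D5:**
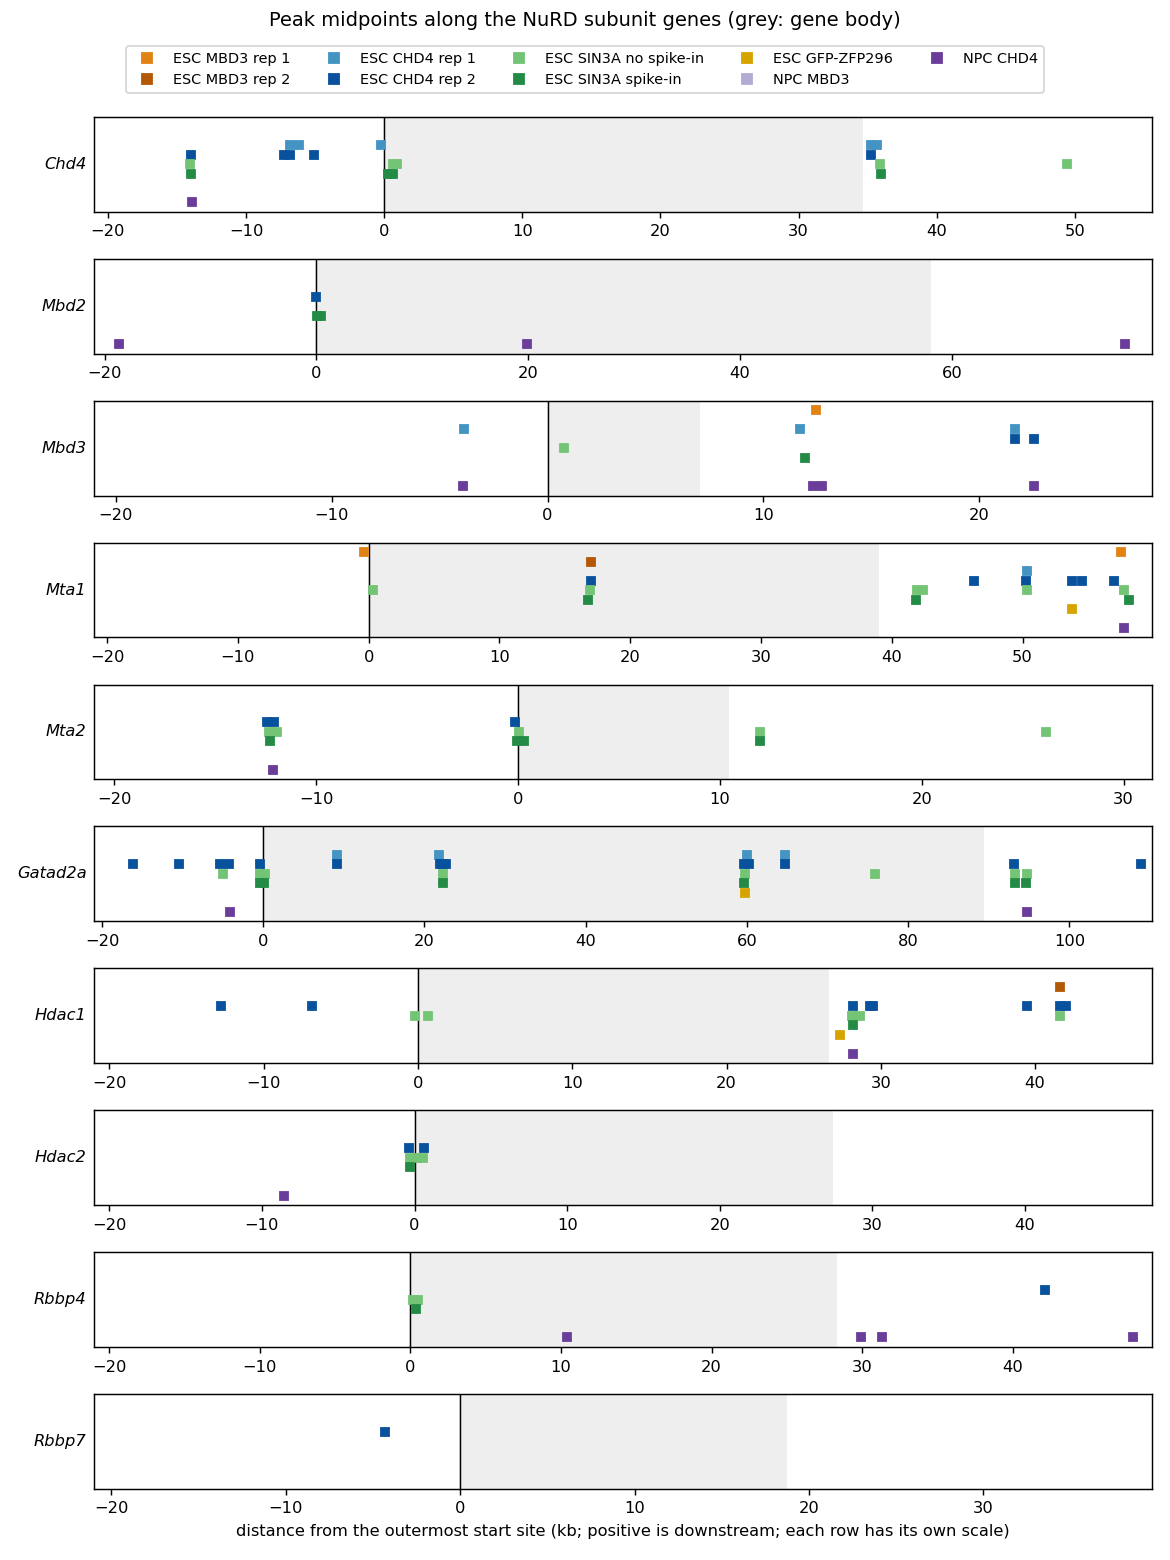
Midpoints of the 140 peaks along the 10 genes, in kb from the outermost start site and in the direction of transcription, with the gene body in grey and 1 colour and height per list. In Hdac2 the peaks of the SIN3A and ESC CHD4 lists lie near 0. In Mta2 and Gatad2a some of them do and others lie elsewhere. NPC CHD4 peaks (purple) lie away from 0.

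Most of these peaks did not lie at the start of the gene they were counted for. Of the 140, 37 (26.4%) lay in the start site window of the NuRD subunit gene, 55 lay only in the window of another gene, and 48 lay in neither. The region searched, the gene body with 20 kb to each side, is wider than the window for any gene. This split was not computed over all genes, so it is not a result about these genes. The neighbours included Nop2 and Iffo1 beside Chd4, Mex3d and Uqcr11 beside Mbd3, Crip1, Crip2 and 4930427A07Rik beside Mta1, Eml3, Rom1, Tut1 and Eef1g beside Mta2, Cilp2, Ndufa13 and Tssk6 beside Gatad2a, Marcksl1 and Lck beside Hdac1, and Sync beside Rbbp4. SIN3A peaks of the highest rank near Mta1, 38.7 without spike-in (above 98.0%) and 37.2 with spike-in (above 98.5%), were at the starts of Crip2 and 4930427A07Rik. The 3 ZFP296 peaks had low ranks, from 17.8% to 25.5%, and 2 of them lay in the windows of Crip1 and Marcksl1. Merged where they overlapped, the 140 peaks formed 77 regions, of which 44 held 1 list, 18 held 2, 8 held 3 and 7 held 4. Such regions were not counted over all genes. Peaks overlapped by no other list were 2 of 13 and 16 of 43 for ESC CHD4 (22.7% and 47.8% of the whole lists). They were 12 of 35 and 3 of 23 for SIN3A without and with spike-in (26.6% and 14.2%), and 8 of 18 for NPC CHD4 (72.1%).

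By the set of lists with a peak at the start, Mbd3 and Hdac1 shared 1 pattern (SIN3A without spike-in alone), which 1123 genes had. Mta2 and Hdac2 shared another (CHD4 replicate 2 and both SIN3A lists), which 1042 genes had, among them Sin3b, Rcor3 and Zmym2. The pattern of Gatad2a, both CHD4 and both SIN3A lists, was found in 314 genes, including Arid4b and Ing1 of the SIN3 complex. Rbbp4 had that of 2836 genes, among them Sin3a, Sap130, Suds3 and Brms1, and Rbbp7, with no list, that of 10004 genes, among them Gatad2b. The patterns of Chd4, Mbd2 and Mta1 were found in 126, 109 and 8 genes.

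Other genes of these complexes were taken from lists chosen by name. Their counts are read against the shares of all genes with a peak at a start site, which were 42.2% and 34.6% for SIN3A without and with spike-in, 10.2% and 26.4% for ESC CHD4 replicates 1 and 2, 15.4% for NPC CHD4 and 2.8% for MBD3 replicate 1. Among genes with CpG-rich promoters, the SIN3A shares were 72.6% and 60.8%. Of 5 further NuRD genes (Chd3, Chd5, Mta3, Gatad2b and Cdk2ap1), 4 had a CHD4 peak of ESC replicate 2 at a start site, 0 of replicate 1, 1 an MBD3 peak (Mta3, replicate 1, value 7.54), and 2 a SIN3A peak in each SIN3A list. In NPCs, 3 of these 5 had a CHD4 peak there, Chd3 (7.84), Mta3 (5.44) and Cdk2ap1 (9.21), where the 10 subunit genes above had none. Of 15 genes of the SIN3 complex, 14 and 13 had SIN3A peaks without and with spike-in, 2 and 6 had ESC CHD4 peaks in replicates 1 and 2, and 6 had NPC CHD4 peaks. Of 8 genes of the CoREST complex, another deacetylase complex, 8 and 6 had SIN3A peaks, 2 and 7 had ESC CHD4 peaks, and 5 had NPC CHD4 peaks. These lists are small and were not tested against the 10 genes.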

How the data were processed

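The 9 peak lists were deposited per sample. Per the study's methods, the authors mapped reads to mm9 with BWA and called peaks with MACS against an input. The submitters' processing notes name MACS2 2.0 and SAMtools. The deposited value per peak is a −log10 value, of a p-value or q-value (which of them is not given in the sources used here). Peak names carry a threshold of 0.001 in 8 lists and 0.0001 in the SIN3A list without spike-in, and 7 lists mention equal read numbers, which the SIN3A lists do not. The study's methods describe the ZFP296 line as made in KH2 ESCs. The depth per library is unknown, so no interval on binding was given.

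Peaks were assigned by midpoint to start site windows and to gene bodies extended by 20 kb, and overlap means at least 1 bp. Coordinates are 1-based, and no peak exceeded its chromosome over 21 chromosomes. Python 3.11.15, numpy 2.4.6 and matplotlib 3.10.9 were used, and the assignment was tested on simulated data. Counts stand beside shares of all genes with no test. All 10 genes were named by rule, neighbours where their start was nearer to a peak. The genes and lists were chosen with earlier results of these data known. The restriction to CpG-rich promoters and the printed sequences were chosen after values were seen. The printed sequences avoid exons and replace peak-centred ones. ESC marker symbols matched for 7 of 8 genes. Alternatives covered the window, the distance, the start sites, a minimum value, equal list sizes and single lists.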

Additional observations from a re-analysis of the deposited data

How the results depend on the processing

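No paired analysis was possible because the counts come from no test. Of 214 values, 31 as reported and 183 under alternatives, 120 stayed within 1.5 times the reported value and 63 moved. Counts of 0 that stayed at 0 are among the 120, and settings that keep fewer peaks could not have moved them. A window of 1 kb to each side left each start site count as it was. With values of at least 10 required, start site counts fell to 0 in MBD3 replicate 1 (0.689% of all genes). They fell to 0 and 2 in CHD4 replicates 1 and 2 (3.23% and 10.7%). Genes in both lists fell to 0 for CHD4 (2.28%) and 3 for SIN3A (14.7%). Genes within 20 kb became 0 and 1 for MBD3 (3.19% and 9.4% of all genes) and 6 for CHD4 replicate 2 (33.5%). They became 0 for ZFP296 (5.28%) and 4 for NPC CHD4 (25.3%). Peaks there became 0 and 1 for MBD3, 4 and 13 for CHD4, 22 and 12 for SIN3A, 0 for ZFP296 and 5 for NPC CHD4. With the 2304 highest values of each list, start site counts were 0 and 0 for CHD4 (1.96% and 2.51% of all genes) and 1 and 3 for SIN3A (9.53% and 9.77%). Both lists shared 0 genes for CHD4 (0.85%) and 1 for SIN3A (4.68%). Genes within 20 kb were then 1 for MBD3 replicate 2 (8.45% of all genes), 2 and 1 for CHD4 (9.26% and 10.9%) and 4 and 4 for SIN3A (17% in both). For ZFP296 there was 1 (10.7%) and for NPC CHD4 2 (9.55%). In the same order, the peaks there were 1, 2, 1, 5, 5, 1 and 2. With the outermost start site alone (added after seeing the data), CHD4 replicate 1 reached 1 gene (9.31% of all genes) and both CHD4 lists 0 (7.55%). With start sites of all transcripts, ZFP296 and NPC CHD4 reached 1 gene each (4.0% and 16.9%). With 5 kb to each side NPC CHD4 reached 2 (18.8%). A distance of 10 kb gave 1 gene (16.2%) and 1 peak for MBD3 replicate 2, 26 peaks for CHD4 replicate 2 and 11 for NPC CHD4. A distance of 50 kb gave 4 and 6 genes for MBD3 (15.8% and 33.1% of all genes), 7 for CHD4 replicate 1 (43.0%) and 2 for NPC MBD3 (15.7%). The peaks were then 6 and 6 for MBD3, 32 and 71 for CHD4, 57 and 35 for SIN3A, 3 for NPC MBD3 and 39 for NPC CHD4. Leaving out either list gave 2 and 4 genes for CHD4 (10.2% and 26.4%, 1 gene in both). For MBD3 it gave 1 and 0 (2.8% and 4.84%, 0 in both), and for SIN3A 6 and 8 (34.6% and 42.2%, 5 in both). Equal list sizes and minimum values hold fewer peaks by construction. Values rank peaks within a list only, and depth was unknown.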
